A study of Mus musculus with 12 samples.

Results

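The genes described here are the 10 glutathione peroxidase, superoxide dismutase and catalase genes Gpx1, Gpx2, Gpx3, Gpx4, Gpx7, Gpx8, Sod1, Sod2, Sod3 and Cat, chosen by name out of the 35013 genes of the deposited table. They were measured by poly-A RNA-seq in KP1, a mouse line labelled as lung adenocarcinoma, in 4 groups of 3 libraries. The groups were NRF2-overexpressing cells with romidepsin, empty-vector (EV) cells with romidepsin, NRF2-overexpressing cells with DMSO, and EV cells with DMSO. Romidepsin, an inhibitor of histone deacetylases, was given at 5 nM for 16 h, and DMSO is its solvent. NRF2, encoded by Nfe2l2, is the transcription factor that answers oxidative stress. Cells of every group were kept in DMEM with serum and moved to RPMI for plating and treatment. The labels name neither the alleles of the line nor the promoter of the NRF2 construct, and do not say how many transductions each arm came from. The series states 3 biological replicates per condition, and p-values below therefore cover differences among cultures alone. In bulk RNA, fewer cells of a type and less RNA per cell cannot be told apart.

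These enzymes remove superoxide and peroxides. Superoxide dismutases turn superoxide into hydrogen peroxide: Sod1 uses copper and zinc in the cytosol, Sod2 uses manganese in mitochondria, and Sod3 is secreted. Catalase, in peroxisomes, splits hydrogen peroxide into water and oxygen. Glutathione peroxidases reduce peroxides with glutathione, Gpx1 mainly hydrogen peroxide and Gpx4 the lipid peroxides of membranes, which makes Gpx4 the central brake on ferroptosis. Gpx2 is the form of the gut lining, Gpx3 is secreted into plasma, and Gpx7 and Gpx8 sit in the endoplasmic reticulum.

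The glutathione peroxidases divide by the residue at their active site, and the coding sequence shows it. In Gpx1, Gpx2, Gpx3 and Gpx4 an in-frame TGA, which elsewhere stops translation, is annotated as selenocysteine, at codon 47, 40, 73 and 129 of the longest coding transcript. Gpx7 and Gpx8 have no in-frame TGA before their stop codon. A cysteine codon stands at the place aligned with the TGA of Gpx4, TGT at codon 56 of Gpx7 and TGC at codon 79 of Gpx8. There 8 and 6 of 12 flanking residues matched those of Gpx4, and the next best placement matched 3. The lines below show 39 coding bases around that codon, from GENCODE mouse release M21 on GRCm38, with the codon in capitals.
Gpx1: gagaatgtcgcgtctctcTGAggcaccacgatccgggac
Gpx2: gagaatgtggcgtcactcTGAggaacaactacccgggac
Gpx3: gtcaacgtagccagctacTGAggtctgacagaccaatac
Gpx4: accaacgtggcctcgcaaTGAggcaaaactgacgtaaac
Gpx7: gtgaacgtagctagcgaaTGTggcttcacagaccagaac
Gpx8: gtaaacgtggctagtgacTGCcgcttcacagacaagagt

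Library totals ran between 16842824 and 28003010 estimated counts, so that 3 counts, the floor used for a gene at 0, came to 0.105 to 0.182 CPM per library (CPM is the count relative to library size, after TMM scaling). Nfe2l2 stood at 339 to 365 CPM in NRF2 cells with romidepsin, against 93.3 to 99.0 CPM in EV cells with romidepsin. It stood at 281 to 352 CPM in NRF2 cells with DMSO, against 101 to 103 CPM in EV cells with DMSO. Epithelial markers summed to 9415 to 9913 CPM in NRF2 cells with romidepsin and 6356 to 6502 CPM in EV cells with romidepsin. With DMSO they summed to 5475 to 6187 CPM in NRF2 cells and 3748 to 3785 CPM in EV cells. Of the 6 genes, 5 were called higher and 1 lower with romidepsin in each line, and likewise in NRF2 against EV cells under romidepsin. With DMSO 5 were called higher and 0 lower in NRF2 than in EV cells. Over all genes, 40.5% in NRF2 and 39.1% in EV cells were called higher with romidepsin. The sums thus moved with both factors, and the part of these markers in the results was not tested. Each of the 6 lung lineage markers was under 1 CPM in every library and Sftpa1 was at 0 in all 12. The immune list of 4, of which Ptprc, Adgre1 and Cd3e were under 1 CPM in every library, summed to 48.2 to 70.3 CPM with romidepsin and 2.83 to 4.52 CPM with DMSO over both lines. Of the 4 mesenchymal markers, Vim was higher with romidepsin in both lines and the other 3 were lower, with a median log2 fold change of -0.63 in NRF2 and -0.75 in EV cells. Of the 3 endothelial markers, Cdh5 and Kdr were under 1 CPM throughout. The sum reached 8.28 CPM in NRF2 and 8.26 CPM in EV cells with romidepsin. With DMSO it reached 4.96 CPM in NRF2 and 10.1 CPM in EV cells. Of 2 tested, 2 were called higher with romidepsin in NRF2 and 1 in EV cells, against 40.5% and 39.1% of all genes. Pecam1 was called higher with romidepsin in NRF2 cells (log2 0.59), and lower in NRF2 than in EV cells with DMSO (log2 -0.89). Neither Pecam1 call held without replicate 3 of NRF2 cells with DMSO. All 5 of 5 NRF2 check targets, Hmox1 and Srxn1 among them, were called higher in NRF2 than in EV cells under both treatments. Over all genes, 23.0% were called higher in that comparison under romidepsin and 19.3% with DMSO. Replicate 3 of NRF2 cells with DMSO stood apart: its root-mean-square log2 distance to its group was 0.344, against 0.170 to 0.227 in the other 11 libraries, and mitochondrial transcripts took 7.30% of its counts, against 4.84% to 6.35%. Where that library changes a call or a value by much, the value without it is given as well.

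Of the 10 genes, 7 passed the filter on low counts (Gpx1, Gpx3, Gpx4, Gpx8, Sod1, Sod2 and Cat), and Gpx3 passed only through NRF2 cells with romidepsin. With romidepsin, Gpx4, Sod2 and Cat rose and Gpx1, Gpx8 and Sod1 fell in both lines, although the Sod1 call depended on the scaling, and Gpx3 had more counts. With NRF2, Cat was higher under both treatments. Calls are edgeR adjusted p-values under 0.05 over all 13502 genes tested. In NRF2 cells romidepsin called 3 of the 6 genes other than Gpx3 higher and 3 lower, where 79.8% of all genes were called, 40.5% higher and 39.3% lower. In EV cells it also called 3 higher and 3 lower, where 76.5% of all genes were called, 39.1% higher and 37.4% lower. With so many genes called, these counts are near the background. NRF2 against EV under romidepsin called 3 of the 6 higher and 1 lower, where 45.4% of all genes were called, 23.0% higher and 22.4% lower. NRF2 against EV with DMSO called 2 of the 6 higher and 0 lower, where 36.3% of all genes were called, 19.3% higher and 16.9% lower. That last count was 4 when replicate 3 of NRF2 cells with DMSO was left out, with 42.2% of all genes called. Romidepsin and DMSO libraries did not overlap for 6 of the 6 in NRF2 cells and 6 in EV cells, against 79.8% and 81.0% of all genes. NRF2 and EV cells did not overlap for 5 of the 6 under romidepsin and 1 with DMSO, against 61.2% and 42.5% of all genes. The pairwise comparisons share groups, so they are not independent of each other.

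**Figure D1:**
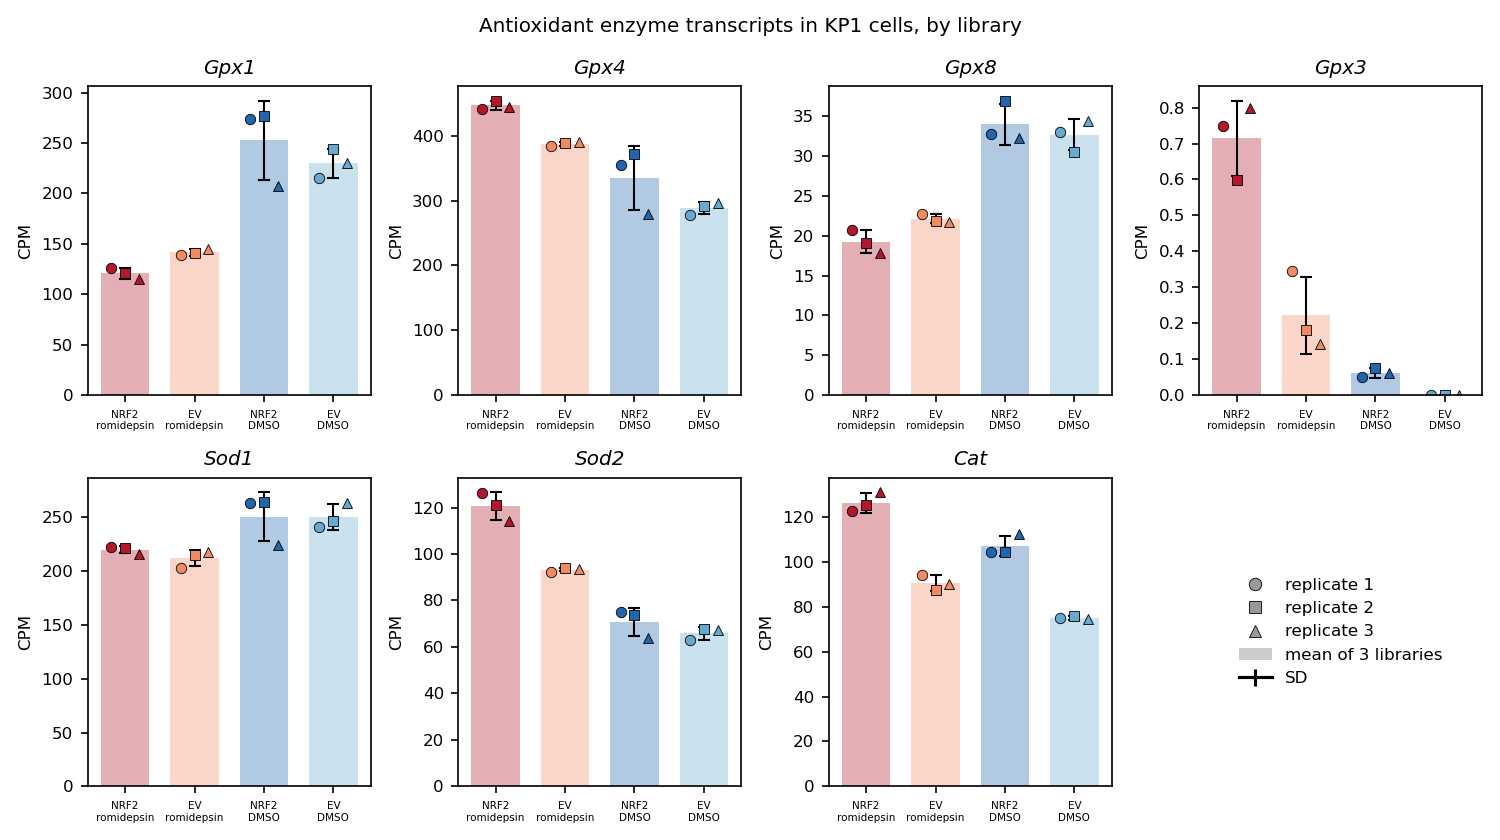
CPM of the 7 tested genes by library (symbols for replicate number), with the group mean as a bar and its SD as a whisker, each axis starting at 0. Gpx1 and Gpx8 are lower in the romidepsin groups, Gpx4, Sod2 and Cat are higher, Sod1 spans a narrow range, and Gpx3 stays under 1 CPM.

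Gpx4 (chr10:80047166-80056439, plus strand, GRCm38), the lipid peroxide reductase, was the most abundant glutathione peroxidase of every group by CPM. It had 442, 454 and 444 CPM in NRF2 cells with romidepsin and 355, 372 and 279 CPM in NRF2 cells with DMSO. It had 384, 388 and 390.0 CPM in EV cells with romidepsin and 278, 292 and 296 CPM in EV cells with DMSO. All romidepsin libraries lay above all DMSO libraries in both lines. Romidepsin raised Gpx4 1.33-fold in NRF2 cells (log2 0.41 ± 0.08 SE, edgeR adjusted p = 1.3e-04) and 1.34-fold in EV cells (log2 0.43 ± 0.08, edgeR adjusted p = 1.2e-04). The change in NRF2 cells was log2 0.28 when replicate 3 with DMSO was left out.

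NRF2 cells held more Gpx4 transcript than EV cells under romidepsin, without overlap (log2 0.21 ± 0.08, edgeR adjusted p = 0.038). With DMSO the difference was log2 0.22 ± 0.08 (edgeR adjusted p = 0.037), and here replicate 3 of NRF2 cells, at 279 CPM, lay within the range of EV cells. Both calls were narrow. The DMSO call was lost without any EV DMSO library, without either of replicates 1 and 2 in NRF2 cells with DMSO, and without either of replicates 2 and 3 in NRF2 cells with romidepsin, with adjusted p up to 0.14, and also with library size alone (0.073), no filter (0.064), limma-voom (0.053) and only the groups compared (0.11). Leaving out replicate 3 of NRF2 cells with DMSO gave log2 0.34 (edgeR adjusted p = 3.2e-09). The call under romidepsin was lost without any of the 6 romidepsin libraries and without replicates 2 or 3 of EV cells with DMSO, with adjusted p up to 0.10, and also with library size alone (0.054) and no filter (0.085). Without replicate 3 of NRF2 cells with DMSO the difference under romidepsin was log2 0.19 (edgeR adjusted p = 7.4e-06). It was called in 8 of the 10 settings other than leaving out a library. The counts are per gene symbol, so the mitochondrial, cytosolic and nuclear forms that Gpx4 is known to encode are summed.

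Gpx1 (chr9:108338903-108340343, plus strand), the abundant cytosolic and mitochondrial hydrogen peroxide reductase, fell with romidepsin. It had 126, 121 and 115 CPM in NRF2 cells with romidepsin and 274, 277 and 208 CPM in NRF2 cells with DMSO. It had 139, 141 and 145 CPM in EV cells with romidepsin and 216, 244 and 230.2 CPM in EV cells with DMSO. The groups did not overlap in either line. The fall was 2.10-fold in NRF2 cells (log2 -1.07 ± 0.09, edgeR adjusted p = 8.4e-08) and 1.62-fold in EV cells (log2 -0.70 ± 0.09, edgeR adjusted p = 7.9e-06). The change in NRF2 cells was log2 -1.21 when replicate 3 with DMSO was left out.

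Between the lines Gpx1 gave no call. Under romidepsin NRF2 cells lay below EV cells without overlap (log2 -0.23 ± 0.09, edgeR adjusted p = 0.0515). That difference was called when replicate 1, 2 or 3 of the NRF2 DMSO group was left out (adjusted p = 0.041, 0.037 and 7.8e-06) and in 8 of 10 other settings. With DMSO the lines overlapped (log2 0.14 ± 0.09, edgeR adjusted p = 0.25). With replicate 3 of the NRF2 group left out it was log2 0.27 (edgeR adjusted p = 9.7e-06).

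Gpx8 (chr13:113042753-113046410, minus strand), the cysteine enzyme of the endoplasmic reticulum, was a minor form that also fell with romidepsin. It had 20.8, 19.1 and 17.9 CPM in NRF2 cells with romidepsin and 32.7, 37.0 and 32.2 CPM in NRF2 cells with DMSO. It had 22.7, 21.9 and 21.7 CPM in EV cells with romidepsin and 33.0, 30.6 and 34.4 CPM in EV cells with DMSO. Romidepsin and DMSO libraries did not overlap. The fall was 1.77-fold in NRF2 cells (log2 -0.82 ± 0.07, edgeR adjusted p = 1.0e-08) and 1.48-fold in EV cells (log2 -0.57 ± 0.07, edgeR adjusted p = 1.5e-06). Under romidepsin Gpx8 was also lower in NRF2 than in EV cells (log2 -0.20 ± 0.08, edgeR adjusted p = 0.041). This call was lost without any EV romidepsin library and without replicates 2 or 3 of NRF2 cells with romidepsin (adjusted p = 0.066 to 0.16), under DESeq2 (adjusted p = 0.059) and with the replicate number as a block (adjusted p = 0.057). With DMSO the lines overlapped (log2 0.06 ± 0.07, edgeR adjusted p = 0.57). The gene lies wholly within Cdc20b on the opposite strand, which had no more than 0.228 CPM in any library.

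The opposite movements of Gpx4 and Gpx1 changed the make-up of the glutathione peroxidase transcripts. Per kilobase of transcript, Gpx4 made up 72.7% ± 1.04 of the 6 genes in NRF2 cells with romidepsin, 66.4% ± 0.237 in EV cells with romidepsin, 49.3% ± 0.308 in NRF2 cells with DMSO and 47.8% ± 0.745 in EV cells with DMSO (SD, n = 3 each). Gpx1 took 23.9% ± 0.827, 29.6% ± 0.372, 45.3% ± 0.737 and 46.4% ± 1.21 in the same groups. Gpx8 took between 3.13% and 6.07% in any library, and Gpx2 and Gpx3 under 1%. The Gpx8 share depends on the length used: with all exons merged it averaged 5.07% in NRF2 cells with romidepsin, 6.13% in EV cells with romidepsin, 8.13% in NRF2 cells with DMSO and 8.72% in EV cells with DMSO. Gpx4 and Gpx1 were thus near parity with DMSO, while Gpx4 was the larger share with romidepsin. The ratio of their counts within a library needs no scaling factor and was chosen after the levels were seen. Counts of Gpx4 over Gpx1 were 3.51, 3.76 and 3.86 in NRF2 cells with romidepsin, 2.77, 2.75 and 2.69 in EV cells with romidepsin, 1.30, 1.34 and 1.34 in NRF2 cells with DMSO, and 1.29, 1.20 and 1.28 in EV cells with DMSO. The romidepsin groups lay above the DMSO groups without overlap, 2.80-fold in NRF2 cells and 2.18-fold in EV cells. NRF2 cells lay above EV cells without overlap, 1.36-fold under romidepsin and 1.06-fold with DMSO. In each of these 4 comparisons the two-sided exact permutation p was 0.1, the smallest that 3 against 3 libraries can give. Replicate 3 of NRF2 cells with DMSO, low for Gpx1 and Gpx4 alike, had the ratio of its group.

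**Figure D2:**
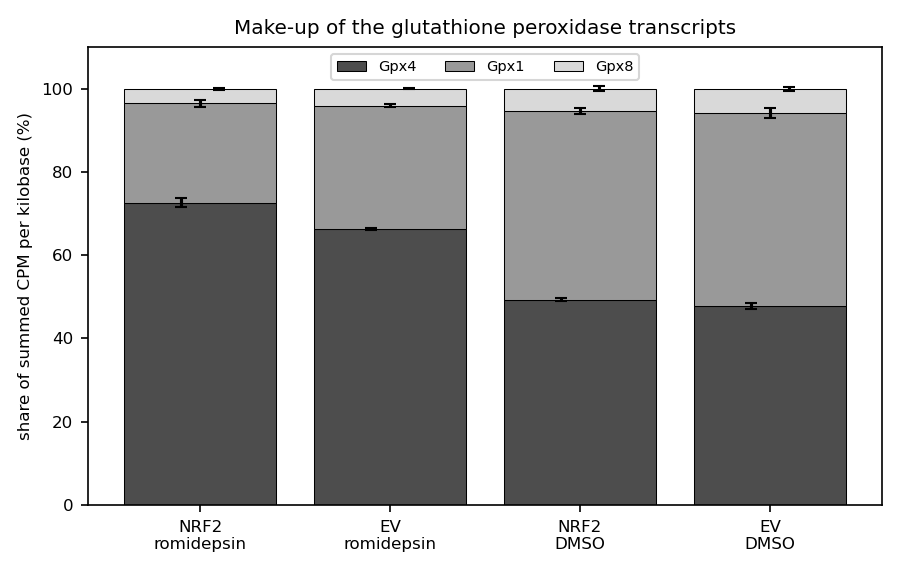
Share of each glutathione peroxidase gene in their summed CPM per kilobase of median coding transcript, by group, as the mean of 3 libraries with SD whiskers. Gpx4 holds 72.7% and 66.4% in the romidepsin groups, against 49.3% and 47.8% in the DMSO groups.

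Gpx3 (chr11:54902453-54910377, plus strand), the secreted plasma form, was near the limit of detection. Its counts were 16, 17 and 14 in NRF2 cells with romidepsin, 7, 4 and 3 in EV cells with romidepsin, 1, 2 and 1 in NRF2 cells with DMSO, and 0 in each EV library with DMSO. Romidepsin libraries lay above DMSO libraries in both lines, and NRF2 cells above EV cells. Because the gene passed the filter only through its highest group, some difference was fixed by that choice, and no test is given against that group. The summed counts gave 3.18-fold more in NRF2 than in EV cells under romidepsin, and romidepsin gave 11.0-fold more in NRF2 cells. For the same reason these ratios are given without intervals. In EV cells romidepsin gave at least 4.51-fold more, with the floor of 3 counts over the group. With DMSO NRF2 and EV cells held 4 and 0 counts, no more than 2 in a library, and no p-value is given for so few. Fibroblast markers moved alongside. Their sum was 11.4 to 14.1 CPM in NRF2 cells with romidepsin, 9.16 to 9.82 CPM in EV cells with romidepsin, 1.79 to 3.15 CPM in NRF2 cells with DMSO and 1.12 to 1.77 CPM in EV cells with DMSO. Of that list of 5, Col1a2, Pdgfrb and Dcn were under 1 CPM in every library, and the part of these markers in the result was not tested. Floors here, and the counting intervals given below, cover counting error only.

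The other glutathione peroxidases were barely read or not read. Gpx2 (chr12:76792333-76795554, minus strand), a known NRF2 target, had 35 counts in all. They were 2, 6 and 3 in NRF2 cells with romidepsin, 2, 1 and 1 in EV cells with romidepsin, 5, 9 and 4 in NRF2 cells with DMSO, and 1, 1 and 0 in EV cells with DMSO. With DMSO the lines did not overlap, at 8.77-fold more in NRF2 cells with a 95% counting interval of 2.10 to 78.0. Fitted without the filter, this difference had an edgeR adjusted p of 0.018. Under romidepsin the lines overlapped (2.60-fold, 0.771 to 11.2). Gpx2 lies wholly within Fntb on the opposite strand, and the strand used in counting is not given in the sources used here. Fntb averaged 27.0 ± 2.42 CPM in NRF2 cells and 23.7 ± 0.342 CPM in EV cells with DMSO (SD, n = 3 each). Gpx7 (chr4:108400390-108406961, minus strand) had 0 counts in all 12 libraries, so it was not detectable above 0.105 to 0.182 CPM.

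Sod2 (chr17:13006846-13040063, plus strand), the mitochondrial manganese enzyme, rose with romidepsin. It had 126, 121 and 114 CPM in NRF2 cells with romidepsin and 75.0, 73.6 and 63.9 CPM in NRF2 cells with DMSO. It had 92.4, 93.8 and 93.7 CPM in EV cells with romidepsin and 62.8, 67.8 and 67.2 CPM in EV cells with DMSO. Romidepsin libraries lay above DMSO libraries without overlap, and the 3 NRF2 libraries with romidepsin were the highest of the 12. The rise was 1.70-fold in NRF2 cells (log2 0.77 ± 0.06, edgeR adjusted p = 1.1e-09) and 1.42-fold in EV cells (log2 0.50 ± 0.06, edgeR adjusted p = 4.7e-07). Leaving out replicate 3 with DMSO gave log2 0.68 in NRF2 cells.

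Under romidepsin NRF2 cells had 1.29-fold more Sod2 than EV cells (log2 0.37 ± 0.06, edgeR adjusted p = 5.3e-05). With DMSO the lines overlapped (log2 0.11 ± 0.06, edgeR adjusted p = 0.18). With replicate 3 of the NRF2 group left out it was log2 0.18 (edgeR adjusted p = 0.0041).

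Sod1 (chr16:90220754-90226329, plus strand), the cytosolic copper and zinc enzyme, varied least of the 7, over 0.24 on the scale of group-mean log2(CPM + 0.5). It had 222, 222 and 216 CPM in NRF2 cells with romidepsin and 263, 264 and 224 CPM in NRF2 cells with DMSO. It had 203, 215 and 217 CPM in EV cells with romidepsin and 240.5, 246 and 263 CPM in EV cells with DMSO. Romidepsin libraries lay below DMSO libraries without overlap, although replicate 3 of NRF2 cells with DMSO came within a few CPM. Sod1 fell 1.14-fold in NRF2 cells (log2 -0.19 ± 0.06, edgeR adjusted p = 0.0061) and 1.18-fold in EV cells (log2 -0.24 ± 0.06, edgeR adjusted p = 0.0011). Leaving out replicate 3 with DMSO gave log2 -0.28 in NRF2 cells (edgeR adjusted p = 1.4e-07). These calls depend on the scaling, which moved the median of all genes up by 0.11 to 0.14 in the romidepsin comparisons under upper-quartile factors or library size alone. With library size alone the change was -0.05 in NRF2 cells (adjusted p = 0.44) and -0.12 in EV cells (adjusted p = 0.066), and with upper-quartile factors it was -0.08 in NRF2 cells (adjusted p = 0.20). NRF2 and EV cells overlapped under both treatments, at log2 0.05 ± 0.06 with romidepsin (edgeR adjusted p = 0.47) and log2 0.0036 ± 0.06 with DMSO (edgeR adjusted p = 0.97). Scaf4 overlaps 650 bases of Sod1 on the opposite strand and averaged between 47.2 and 78.2 CPM per group.

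Counts of Sod2 over Sod1 within a library separated the 4 groups. The ratio was 0.569, 0.546 and 0.529 in NRF2 cells with romidepsin, 0.455, 0.436 and 0.431 in EV cells with romidepsin, 0.285, 0.279 and 0.285 in NRF2 cells with DMSO, and 0.261, 0.276 and 0.255 in EV cells with DMSO. No group overlapped with its neighbour, and the romidepsin groups lay 1.94-fold above DMSO in NRF2 cells and 1.67-fold in EV cells (two-sided exact permutation p = 0.1, the smallest possible). Sod3 (chr5:52363791-52371418, plus strand), the secreted form, had 15 counts over the 12 libraries and at most 5 in any, and was not tested.

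**Figure D3:**
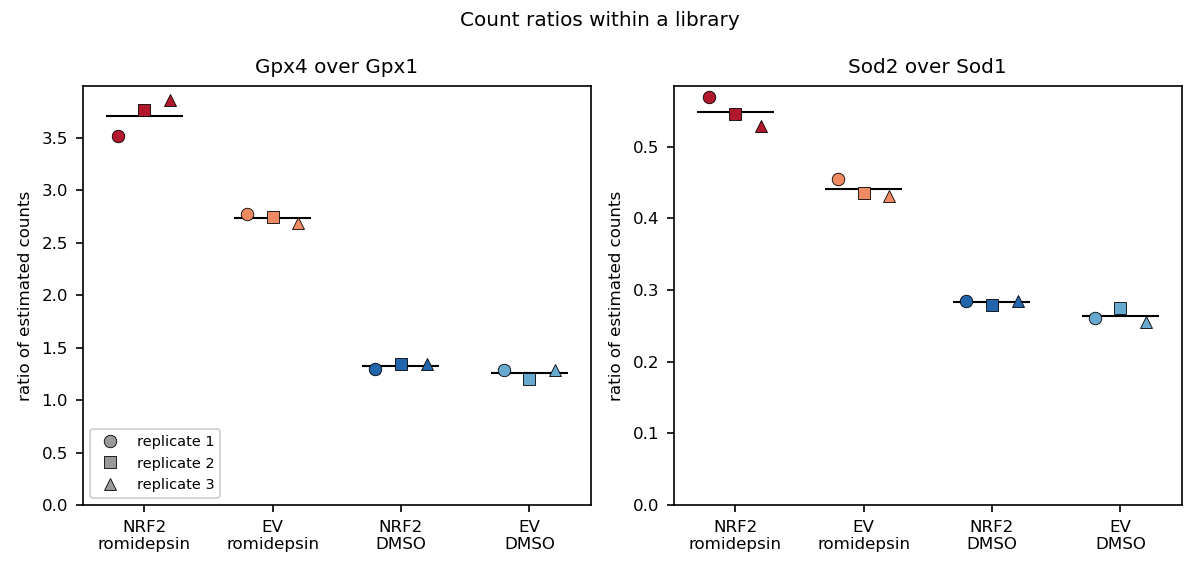
Ratio of the estimated counts of Gpx4 over Gpx1 (left) and of Sod2 over Sod1 (right) in each library, with the group mean as a line and axes starting at 0. The 4 groups do not overlap in either panel.

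Catalase (Cat, chr2:103453849-103485160, minus strand) was the member that differed most between the lines with DMSO among those above 1 CPM. Cat had 122, 125 and 131 CPM in NRF2 cells with romidepsin, against 94.2, 87.3 and 90.2 CPM in EV cells with romidepsin. It had 104, 104 and 112 CPM in NRF2 cells with DMSO, against 74.8, 75.7 and 74.4 CPM in EV cells with DMSO. Every NRF2 library lay above every EV library, and replicate 3 of NRF2 cells with DMSO was the highest of its group here. NRF2 cells had 1.39-fold more under romidepsin (log2 0.48 ± 0.05, edgeR adjusted p = 4.3e-07) and 1.43-fold more with DMSO (log2 0.51 ± 0.05, edgeR adjusted p = 2.2e-07). Romidepsin added 1.18-fold in NRF2 cells (log2 0.24 ± 0.05, edgeR adjusted p = 1.6e-04) and 1.21-fold in EV cells (log2 0.27 ± 0.05, edgeR adjusted p = 5.5e-05), again without overlap. All 4 calls held in each of the 12 fits that left out a library and in the 10 other settings.

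The promoters of Cat and Sod1 are shown because NRF2 is known to bind the antioxidant response element, whose core was searched as TGACNNNGC on both strands. RefSeq gave promoter windows for 9 of the 10 members, 12 windows in all, each of 250 bases before and 50 after a start site on GRCm38.p6. Those letters stood in the Sod1 window alone, beginning 56 bases before the start site on the minus strand, and in 12.4% of all 32817 windows. The Cat window did not hold them. It held the letters CCAAT, read on both strands, 4 times, and 37.4% of all windows held them at least once. Windows of Gpx2, Gpx3, Gpx4, Sod1 and Sod2 also held them, at most 3 times each. The 1 copy in the Sod1 window is not marked below. A match is a description and not a site, and a missing one says only that the letters are not in the window. The lines below give the 250 bases before the start site, 5′ to 3′ on the strand of the gene, for Cat at chr2:103485154-103485403 on the minus strand with CCAAT in capitals, and for Sod1 at chr16:90220512-90220761 on the plus strand with the response element letters in capitals.
Cat: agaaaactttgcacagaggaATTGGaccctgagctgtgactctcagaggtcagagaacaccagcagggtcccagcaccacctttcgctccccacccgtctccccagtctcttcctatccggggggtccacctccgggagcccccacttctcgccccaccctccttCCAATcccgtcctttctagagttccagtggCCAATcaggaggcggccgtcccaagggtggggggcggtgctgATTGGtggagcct
Sod1: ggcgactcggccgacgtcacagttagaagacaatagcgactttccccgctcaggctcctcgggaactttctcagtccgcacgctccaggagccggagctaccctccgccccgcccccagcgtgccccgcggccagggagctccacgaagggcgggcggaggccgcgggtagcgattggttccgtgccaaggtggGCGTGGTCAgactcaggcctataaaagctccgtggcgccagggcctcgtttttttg

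Whether romidepsin acted by a different size in the lines was tested as the interaction, the log2 change in NRF2 cells minus that in EV cells. Sod2 was the only called gene of the 6 other than Gpx3, at 0.26 ± 0.08 (edgeR adjusted p = 0.037), where 15.8% of all genes were called, 5.53% higher and 10.2% lower. The call held in 9 of 9 other settings. It was lost without replicates 2 or 3 of EV cells with DMSO, without any EV romidepsin library and without replicates 1 or 2 of NRF2 cells with romidepsin (adjusted p = 0.068 to 0.13). Gpx1 had -0.37 ± 0.13 (edgeR adjusted p = 0.065, DESeq2 adjusted p = 0.029) and Gpx8 -0.26 ± 0.10 (edgeR adjusted p = 0.11). Gpx4, Sod1 and Cat lay between -0.04 and 0.05, with 95% intervals within -0.24 to 0.22. When replicate 3 of the NRF2 DMSO group was left out 4 genes were called, with 22.2% of all genes: Gpx1 at -0.51, Gpx8 at -0.31, Gpx4 at -0.15 and Sod2 at 0.18.

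**Figure D4:**
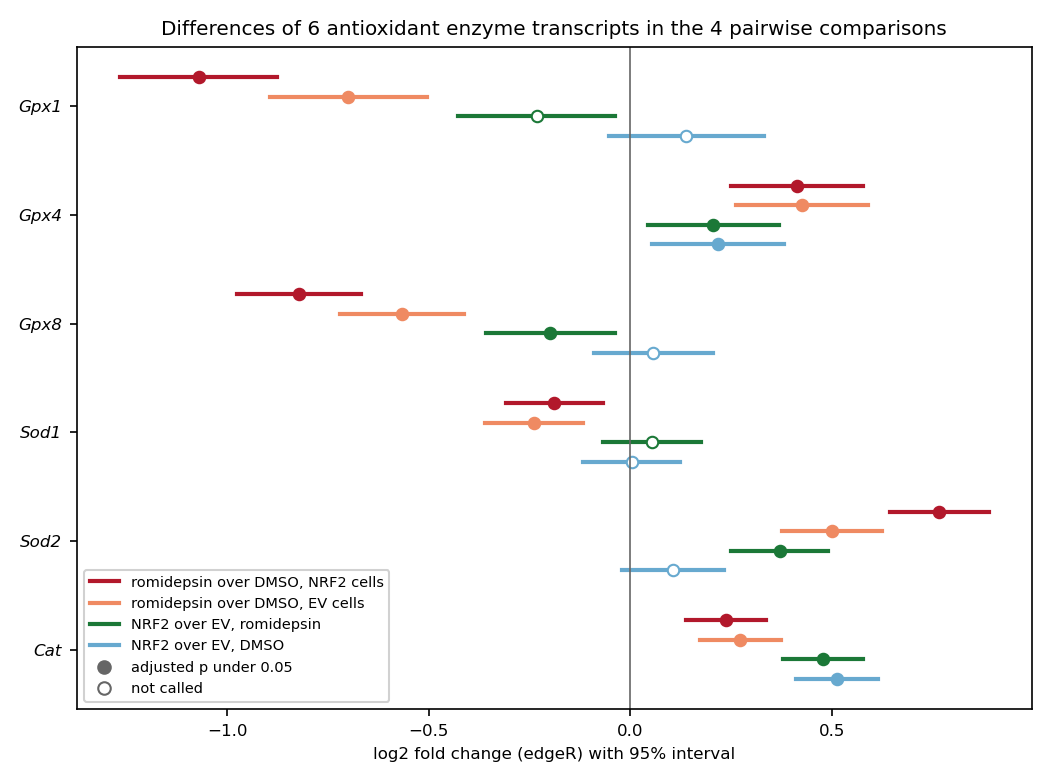
Fitted log2 fold changes of the 6 members above 1 CPM in the 4 pairwise comparisons, with 95% intervals (filled points have an edgeR adjusted p under 0.05). The romidepsin changes of Gpx1, Gpx8 and Sod1 lie below 0 and those of Gpx4, Sod2 and Cat above it in both lines, and Cat lies near 0.5 in both NRF2 comparisons.

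Levels of different genes were compared per kilobase of median coding transcript. In NRF2 cells with romidepsin the order was Gpx4 at 466 ± 6.68 CPM per kilobase, Sod1 at 343 ± 5.22, Gpx1 at 153 ± 6.84, Cat at 74.4 ± 2.57, Sod2 at 38.2 ± 1.90 and Gpx8 at 21.3 ± 1.61 (SD, n = 3). EV cells with romidepsin kept that order, with Gpx4 at 404 ± 3.10 and Gpx8 at 24.4 ± 0.603 CPM per kilobase. In EV cells with DMSO Sod1 led with 390.0 ± 18.6 CPM per kilobase, followed by Gpx4 at 301 ± 10.1, Gpx1 at 292 ± 18.0, Cat at 44.2 ± 0.395, Gpx8 at 36.1 ± 2.17 and Sod2 at 20.9 ± 0.861. NRF2 cells with DMSO had the same order of these 6. Neighbours in the order overlapped for Gpx4 and Gpx1 in both DMSO groups and for Sod1 and Gpx4 in NRF2 cells with DMSO, and did not overlap elsewhere. The order depends on the length used. With all exons merged Gpx4 and Gpx1 lay above Sod1 in every group. In EV cells with DMSO Gpx8 (31.2 CPM per kilobase) then lay above Cat (28.7 CPM per kilobase).

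Over all genes tested, romidepsin was called with 40.5% higher and 39.3% lower in NRF2 cells and with 39.1% higher and 37.4% lower in EV cells, and the counts of the lists that follow stand beside those shares. Of 15 tested other selenoproteins, 8 were higher and 6 lower with romidepsin in NRF2 cells, and 8 higher and 5 lower in EV cells. The median log2 fold changes were 0.26 and 0.27, against 0.01 over all genes in either line. Selenom, an endoplasmic reticulum protein, rose by 3.30 in NRF2 and 3.00 in EV cells on the log2 scale. Msrb1, which repairs oxidised methionine, rose by 2.04 and 1.88 in those lines. Txnrd2, the mitochondrial thioredoxin reductase, fell by 1.37 in NRF2 and 1.20 in EV cells on the log2 scale, and Selenoh, a nuclear protein, fell by 1.19 and 0.82. Of the 10 genes for selenocysteine synthesis, 4 were higher and 3 lower in NRF2 cells and 4 higher and 4 lower in EV cells, also near that share. Scly, which frees selenium from selenocysteine, rose by 1.84 in NRF2 and 1.56 in EV cells on the log2 scale, and Pstk, a kinase of the seryl-tRNA route, fell by 0.79 and 0.48.

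Copper handling genes, which serve Sod1 among other enzymes, were mostly higher with romidepsin: 9 of 10 tested were higher and 1 lower in each line, where 40.5% of all genes were higher in NRF2 and 39.1% in EV cells, with a median log2 fold change of 1.23 in NRF2 and 0.77 in EV cells, against 0.01 over all genes. Atox1, a copper chaperone, rose by 2.06 in NRF2 and 1.49 in EV cells on the log2 scale, and Mt2, a metallothionein, rose by 2.45 and 2.18. The member against this direction was Ccs, the chaperone that loads copper into Sod1. Ccs fell by 0.33 in NRF2 and 0.27 in EV cells with romidepsin on the log2 scale. Between the lines Ccs was higher in NRF2 than in EV cells, by 0.33 under romidepsin and 0.39 with DMSO (edgeR adjusted p = 6.7e-05 and 1.0e-05).

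Genes of lipid peroxidation and ferroptosis, the process Gpx4 restrains, were mostly higher with romidepsin: 13 of 15 tested were higher and 2 lower in NRF2 cells, and 11 higher and 1 lower in EV cells, where 40.5% and 39.1% of all genes were higher in those lines. The median log2 fold change was 0.98 in NRF2 and 0.99 in EV cells, against 0.01 over all genes. The list mixes genes that restrain ferroptosis with genes that favour it. Gch1, which makes the antioxidant tetrahydrobiopterin, rose by 5.23 in NRF2 and 4.86 in EV cells on the log2 scale. Lpcat3, which places polyunsaturated chains in phospholipids, rose by 1.36 and 1.20, and Fth1, the ferritin heavy chain, rose by 1.69 and 1.09.

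Of 6 tested peroxiredoxins, the other main peroxide reductases, 2 were higher and 4 lower with romidepsin in each line, where 79.8% of all genes were called in NRF2 and 76.5% in EV cells. Prdx1, a cytosolic enzyme, rose by 1.64 in NRF2 and 1.13 in EV cells on the log2 scale, and Prdx6, which uses glutathione, fell by 0.97 and 0.95. In the supply of glutathione, 7 of 15 genes were higher and 6 lower with romidepsin in NRF2 cells, and 6 higher and 6 lower in EV cells, near the share over all genes. Gsr, which regenerates glutathione, fell by 0.53 in NRF2 and 0.37 in EV cells with romidepsin on the log2 scale. It was higher in NRF2 than in EV cells by 0.37 under romidepsin and 0.54 with DMSO.

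Of the enzymes that make superoxide or hydrogen peroxide, 7 of 14 tested were higher and 4 lower with romidepsin in NRF2 cells, and 7 higher and 3 lower in EV cells, where 79.8% and 76.5% of all genes were called in those lines. Smox, the spermine oxidase, rose by 1.84 in NRF2 and 1.68 in EV cells on the log2 scale, and Aox1, an aldehyde oxidase, fell by 2.33 and 2.27. Of 15 genes for import into peroxisomes, where catalase works, 5 were higher and 7 lower with romidepsin in each line, against those same shares, but 7 higher and 5 lower in NRF2 cells and 5 higher and 2 lower in EV cells with library size alone. Between NRF2 and EV cells with DMSO, where Cat differed, 0 of these 15 were called higher and 1 lower by edgeR, where 36.3% of all genes were called. That gene was Pex5, the import receptor for catalase and most other matrix proteins (log2 -0.31 ± 0.06, edgeR adjusted p = 7.0e-04). When replicate 3 of the NRF2 DMSO group was left out, 2 were called higher and 2 lower.

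The genes whose log2 CPM ran most like a member over the 12 libraries were taken for the 3 members of widest range, and the points share the 4 groups. For Gpx3 they were Nus1, Srxn1 and Rmc1 (Pearson r = 0.981, 0.978 and 0.977). Gpx3 had at most 17 counts in a library and passed the filter only through NRF2 cells with romidepsin. Its range and these correlations therefore depend on that group and on the 0.5 CPM added before the log, and shared control was not tested. For Gpx1 they were Lsm2, Tm4sf1 and Ddx39b (r = 0.994, 0.993 and 0.992). For Sod2 they were Clptm1, Drap1 and Prdx1 (r = 0.995, 0.994 and 0.993). These values describe these libraries, where most genes differ between romidepsin and DMSO.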

How the data were processed

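The deposited table of the authors held estimated counts per gene symbol, all whole numbers (100% of values). A second deposited table held a signal, each estimated count divided by 1 factor per library, which equals the DESeq2 size factor within rounding error. The submitters' processing notes name bcl2fastq 2.19, kallisto 0.44.0, DESeq2 and the build GRCm38. The transcript annotation and the use of strand are not given in the sources used here. Per the labels, poly-A RNA was taken with Trizol and read with TruSeq chemistry.

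The filterByExpr filter of edgeR 4.0.16 (R 4.3.3; minimum count 10) left 13502 of 35013 genes. They were tested with its quasi-likelihood test (TMM factors, 2-sided, 12 libraries, 1 mean per group, 8 residual degrees of freedom), with Benjamini-Hochberg adjustment over all genes. The prior count was 0.125. SE is the absolute log2 fold change over the square root of F. CPM are counts scaled by TMM factors. The procedure was tested on simulated data.

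The members and the lists of other genes were chosen with earlier results of these data known. Named were all members, Nfe2l2, up to 4 called genes per list and comparison with the largest change and a mean of at least 1 CPM, and the 3 genes most like each of 3 members; some, such as Ccs and Gsr, are also described in comparisons where this rule did not name them. Replicate numbers were not used to pair the libraries in the main fit. Deviations correlated over 0.1 in 0 of 18 same-numbered pairs and in 4 of 36 differently numbered pairs. Deviations from a mean of 3 libraries are tied within a group, so this cannot exclude a pairing. Other settings tried were scaling by library size, RLE or upper-quartile factors, no filter or 1 CPM in 3 libraries, limma 3.58.1 (voom, or trend on the deposited signal with a pseudocount of 1), DESeq2 1.42.0, the replicate block, the compared groups alone, merged exon length, and leaving out each library. The ratios within a library, list counts under other scalings, and counts leaving out replicate 3 of the NRF2 DMSO group were added after the data were seen. Gene positions and lengths came from GENCODE mouse release M21. Library totals ran between 16842824 and 28003010 estimated counts.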

Additional observations from a re-analysis of the deposited data

Results flagged for a closer look

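Sod2 was singled out because the size of its romidepsin response differed between the lines by a test of the difference itself. The log2 change was 0.77 in NRF2 cells and 0.50 in EV cells, a difference of 0.26 ± 0.08 (edgeR adjusted p = 0.037). Over all genes, 15.8% were called in this test. The 3 NRF2 libraries with romidepsin lay above every other library, but they also did for Gpx4 and Cat, whose differences were -0.012 and -0.035. Over the 12 fits that left out a library the difference lay between 0.18 and 0.30, and it was called in 5. Its adjusted p reached 0.13 without replicate 1 of NRF2 cells with romidepsin.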

How the results depend on the processing

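Counts here include Gpx3, and its calls against NRF2 cells with romidepsin were partly fixed by the filter, so they are no support. The romidepsin counts (7 of 7 called in each line) moved by less than 1.5 times under every alternative. Over all genes, 79.8% were called with romidepsin in NRF2 cells and 76.5% in EV cells. For NRF2 against EV the shares were 45.4% under romidepsin and 36.3% with DMSO, and for the interaction 15.8%. The count for NRF2 against EV with DMSO, 2, was 1 with library size alone and with only the groups compared, and 1 to 4 when a library was left out. The count under romidepsin, 5, was 3 to 6 when a library was left out. The interaction count, 1, was 2 with DESeq2 and 0 to 4 when a library was left out; fewer samples enter those fits. With merged exon length the Gpx4 share was 65.3% in EV cells with romidepsin, 48.3% in NRF2 cells with DMSO and 46.7% in EV cells with DMSO, and 6, 4, 7 and 5 of 10 members kept their rank in NRF2 cells with romidepsin, EV cells with romidepsin, NRF2 cells with DMSO and EV cells with DMSO.

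Reversed signs were found for differences that gave no call. For NRF2 against EV with DMSO, Sod1 was -0.032 with library size alone, -0.0017 with limma-trend and -0.032 to 0.080 when a library was left out, and Gpx8 was -0.0017 to 0.10. In the interaction, Gpx4 was 0.0074 with library size alone, 9.3e-05 with limma-trend and -0.15 to 0.053 when a library was left out, Sod1 was -0.041 to 0.078, and Gpx3 was 0.38 with limma-trend. The cause was not tested. With the replicate number as a block, Gpx8 in NRF2 against EV cells under romidepsin lost its call (log2 -0.20, adjusted p = 0.057) and Gpx1 gained one (log2 -0.23, adjusted p = 0.039); it changed no other call. The depth limits Gpx2, Gpx3, Gpx7 and Sod3, which have under 1 CPM in every library, to counts and bounds.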

Other observations

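Gpx6, a glutathione peroxidase known from olfactory tissue and no member of the set, was read with romidepsin and at 0 in all 6 DMSO libraries. Its counts with romidepsin were 3, 7 and 0 in NRF2 cells and 4, 2 and 2 in EV cells. The sums were at least 3.12-fold higher in NRF2 and 2.57-fold higher in EV cells than the floor of 3 counts in their DMSO groups, but replicate 2 holds most of the NRF2 sum, and without it 3 counts remain, which is the floor. Between the lines under romidepsin the ratio was 1.18, with a 95% counting interval of 0.420 to 3.45. Gpx5 had 0 counts in all 12 libraries. No test was run on either gene.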
